A study of Mus musculus with 18 samples.

Results

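The genes described here encode parts of the phagocyte NADPH oxidase (Cybb, Cyba, Ncf1, Ncf4 and Rac2) and enzymes of the oxidative stress response (Hmox1, Sod2, Nos2 and Nqo1). They were chosen by name, with earlier results of these data known. Every probe set that names 1 of these 9 genes alone was taken, which gave 17 of the 34958 single-gene probe sets on the array. Microglia, the resident macrophages of the brain, had been sorted by FACS as CX3CR1-GFP+ cells from hippocampi of C57BL/6 mouse embryos at E17.5, with the embryos of a dam pooled and their sex recorded as unknown. The LPS group (4 arrays) was wild type with maternal inflammation by LPS, a bacterial endotoxin, and its control was the wild-type PBS group (4 arrays). The DAP12KO group (4 arrays) was untreated and carried the DAP12-/- mutation, and its control was the untreated wild-type UT group (6 arrays). DAP12, the product of Tyrobp, is an adaptor protein that passes on signals of receptors such as TREM2. All groups share the CX3CR1-GFP reporter by which the cells were sorted. The labels state neither the dose nor the day of the LPS treatment. They carry a calendar year, called A to D here in order of time: 1 LPS and 1 PBS array belong to year A, 2 LPS and 2 PBS arrays to year B, 2 UT arrays to year C, and 1 LPS, 1 PBS, 4 DAP12KO and 4 UT arrays to year D.

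The phagocyte NADPH oxidase moves electrons from NADPH across a membrane to oxygen and so makes superoxide, which microglia and other phagocytes use against microbes and as a signal. Its membrane core is a pair of proteins, the catalytic subunit NOX2 (Cybb) and its partner p22phox (Cyba), which stays silent until the cytosolic subunits, among them p47phox (Ncf1) and p40phox (Ncf4), and the small GTPase Rac2 join it. Superoxide dismutases, heme oxygenase and quinone reductase limit the damage that such oxidants do, and several of these enzymes are made on demand under the control of the transcription factor NRF2.

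Promoter windows of the membrane pair are shown because Cybb and Cyba encode partners in 1 complex and their probe sets differed in behaviour between the groups. RefSeq's promoter table (mouse build GRCm38.p6) held 5 of the 9 genes, Cybb, Cyba, Ncf1, Sod2 and Nqo1, each with 250 bases before and 50 bases after the start of the gene. The Cybb window lies at chrX:9469275-9469574 and the Cyba window at chr8:122432891-122433190, both on the minus strand. Capitals mark matches to the motifs searched.
Cybb: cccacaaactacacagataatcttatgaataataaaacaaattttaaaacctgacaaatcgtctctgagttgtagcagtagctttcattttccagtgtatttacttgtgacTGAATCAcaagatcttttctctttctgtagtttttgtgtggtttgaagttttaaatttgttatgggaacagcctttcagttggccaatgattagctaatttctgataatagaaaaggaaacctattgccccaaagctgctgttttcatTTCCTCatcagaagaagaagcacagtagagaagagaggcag
Cyba: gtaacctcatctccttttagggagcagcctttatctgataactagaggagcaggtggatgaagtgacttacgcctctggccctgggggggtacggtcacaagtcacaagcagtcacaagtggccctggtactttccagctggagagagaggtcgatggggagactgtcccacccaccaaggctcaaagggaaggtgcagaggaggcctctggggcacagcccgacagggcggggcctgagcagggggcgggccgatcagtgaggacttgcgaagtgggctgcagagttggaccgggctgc

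Both strands of each window were searched for the letters of 4 motifs. The core site of PU.1, the transcription factor that specifies macrophages, GAGGAA, was present in 28.3% of the 32851 promoters of the table and in 2 of the 5 members. In Cybb it lay on the reverse strand at bases 10 to 15 after the start, and in Sod2 on the forward strand at bases -203 to -198. The AP-1 pattern TGANTCA, which reads the same on both strands, was present in 7.81% of all promoters and among the members only in Cybb, at bases -139 to -133. The form found there, TGAATCA, differs from the usual AP-1 forms TGACTCA and TGAGTCA. The antioxidant response element TGACNNNGC, through which NRF2 acts, was present in 12.4% of all promoters, and a kappaB site of 10 letters in 0.155%, and neither stood in any of the 5 member windows. None of the 4 motifs was found in the Cyba window.

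The values are log2 expression values made by RMA, a method that corrects, normalizes and summarizes the probes of a set, and a difference of 1 on this scale is a doubling. The array medians lay between 2.78 and 3.17, and 32.7% to 38.2% of the probe sets of an array stood at the table's lowest value, 2.19. The Gapdh 3' minus 5' signal, a sign of RNA quality, was 2.73 on the LPS and 2.01 on the PBS array of year A. In year B it was 2.23 to 2.96 in LPS and 2.46 to 3.33 in PBS arrays. On the LPS and PBS arrays of year D it was 0.96 and 0.98. In DAP12KO arrays it was 0.89 to 1.20 and in UT arrays 0.99 to 2.77. Its part in the differences between groups was not tested. Mean levels of 19 microglia marker genes were 12.82 to 13.80 on all arrays but the 2 PBS arrays of year B, which stood apart at 11.77 and 11.93. Neuron markers (20 genes) averaged 10.42 and 10.52 on these 2 arrays and at most 8.92 on the others. Neural progenitor markers (16 genes that passed the filter for low values) averaged 10.5 and 10.48 there, against at most 8.33. Of 13 neutrophil markers with a probe set, the granule genes Mpo, Elane, Ltf, Camp, Ngp, Mmp8 and Lcn2 stayed near the floor on all 18 arrays. Others of that list were detected, Csf3r at 5.36 to 11.31 (median 10.57) and Cxcr2 at 2.47 to 5.57 (median 4.13), and S100a8 and Mmp9 reached 5.17 and 3.96. Only these 4 genes passed the filter and entered the list mean, which leaves out the granule genes. The mean of the 4 was 4.37 to 5.38 in LPS and 3.61 to 5.55 in PBS arrays. In DAP12KO arrays it was 4.65 to 5.08 and in UT arrays 4.75 to 5.37. The targeted gene, Tyrobp (probe set 1450792_at), read 13.75 to 14.23 in the 4 DAP12KO arrays and 14.29 to 14.55 in the 6 UT arrays, a fitted difference of -0.60 ± 0.13 (SE, adjusted p = 0.480). Whether its probes lie in the deleted part is not known here, so that it is a limited check of the genotype.

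In microglia exposed to maternal LPS, the 3 probe sets of Cybb and the 2 of Rac2 were above PBS in each of the 3 label years that hold both groups. The fitted LPS minus PBS differences of Cybb were 1.58 to 2.41 and those of Rac2 0.78 and 1.14 on the log2 scale. Cyba, Ncf1, Ncf4 and Hmox1 were above PBS in the arrays of year B, whereas within years A and D each of their 6 probe sets was below PBS in at least 1 year, and those of Cyba and 2 of Ncf1 in both. The 4 probe sets of Sod2 had no common direction. No difference passed the test: 0 of the 15 member probe sets that could be tested had an adjusted p under 0.05 in limma, and the lowest adjusted p was 0.207. Over all 22512 probe sets tested the call rate was 0.0267%, or 6 probe sets. That count was 1 without any 1 of the 4 arrays of year B and 141 to 243 without any 1 of the 4 LPS and PBS arrays of years A and D, and 0 members were called in each case.

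Unadjusted p-values under 0.05 were found for 5 of the 15 member probe sets, all with LPS above PBS, where 3.61% of all probe sets tested were below that level in this direction and 8.71% in the other. These were 2 probe sets of Cybb and 1 each of Ncf1, Rac2 and Hmox1. The fitted difference was above 0 in 13 of 15 member probe sets, against 43.5% of all probe sets, and the median was 0.62, against -0.10 over all. Without the 4 arrays of year B, 9 of the 15 were above 0 and the median was 0.08. All 4 LPS arrays exceeded the PBS mean of their year in 5 member probe sets, those of Cybb and Rac2, against 6.5% of all probe sets. The within-year difference was above 0 in all 3 years in the same 5, against 8.56% of all probe sets. The microglia markers of year B were at 12.82 and 13.03 in LPS arrays and at 11.77 and 11.93 in PBS arrays, so that every member difference within year B stands beside a lower microglia marker level and a higher neuron marker level in PBS. Fewer microglia and less RNA per microglial cell cannot be told apart in such sorted bulk samples.

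In DAP12KO microglia, 2 of the 3 probe sets of Cybb, 1422978_at and 1436779_at, read higher than in the UT arrays of the same year, with fitted differences of 2.97 and 2.67, and Rac2 probe set 1440208_at had a fitted difference of 1.48. The other genes of the oxidase, Cyba, Ncf1 and Ncf4, had fitted differences between -0.21 and 0.31, and Hmox1 was at 0.06. Again none passed the test: 0 of 15 member probe sets were called in limma, where the call rate over all 22512 probe sets was 0.0%, and the lowest adjusted p of a member was 0.633. The unadjusted p was under 0.05 for 3 of the 15, all with DAP12KO above UT, against 2.94% of all probe sets in that direction and 2.54% in the other. The fitted difference was above 0 in 11 of 15, against 51.3% of all probe sets, with a median of 0.08 for the members and 0.02 for all. The DAP12KO arrays all belong to year D, so the 4 UT arrays of that year set each fitted difference and the UT arrays of year C inform the spread only.

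**Figure D1:**
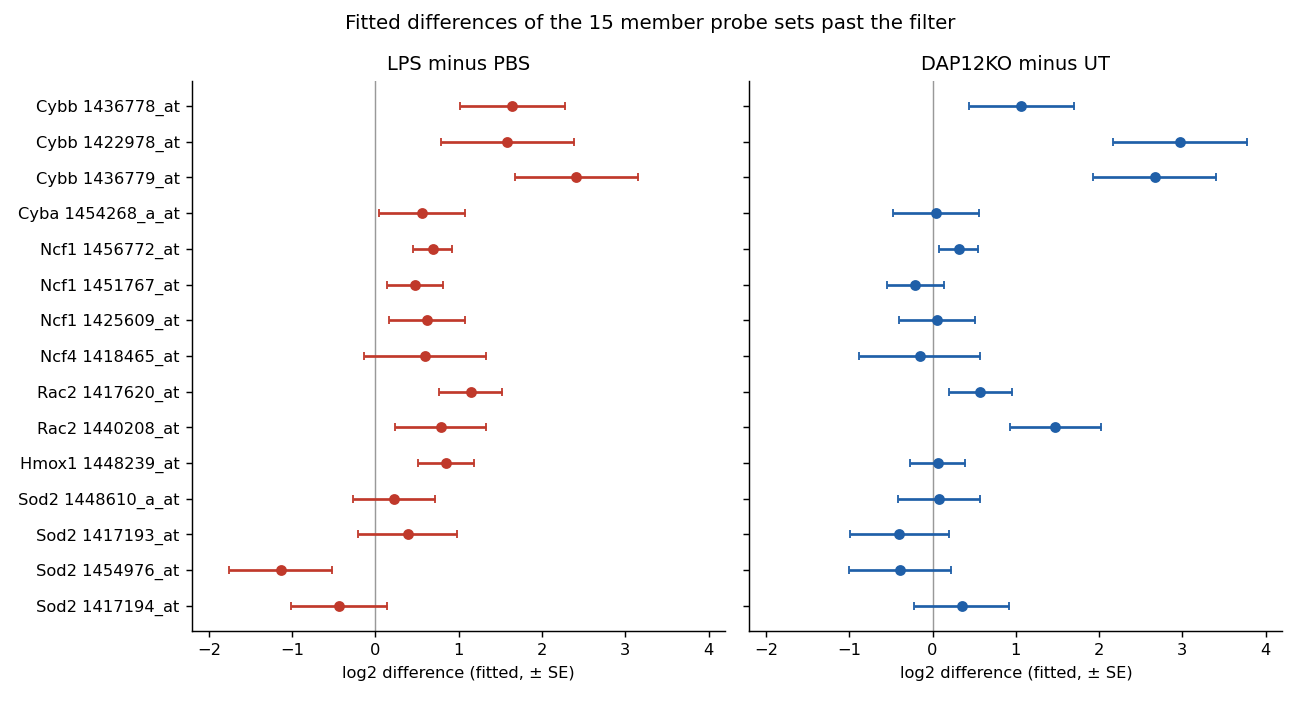
Fitted log2 differences of the 15 member probe sets that could be tested, LPS minus PBS on the left and DAP12KO minus UT on the right, with bars of 1 standard error of the limma fit. The Cybb and Rac2 probe sets lie right of 0 in both panels, from 0.78 to 2.41 in the left panel and from 0.57 to 2.97 in the right one, and no value passed the adjusted threshold.

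Cybb encodes NOX2, the subunit that carries the electrons, and lies on the X chromosome. Its probe set 1436779_at read 8.68 (year A), 4.94 and 4.81 (year B) and 6.74 (year D) in the LPS arrays, against 3.25 (year A), 3.92 and 3.85 (year B) and 4.51 (year D) in the PBS arrays. Every LPS array was above every PBS array, with 4.81 in the lowest LPS array against 4.51 in the highest PBS array. The fit gave a difference of 2.41 ± 0.74 (SE), or 5.31-fold, with an adjusted p of 0.207. Within the years it was 5.43 in year A, 0.99 in year B and 2.23 in year D, and the fitted value was 1.40 when the year A array of either group was left out. In the DAP12KO arrays the same probe set read 6.91, 8.23, 8.97 and 7.74, and the 6 UT arrays ran from a lowest value of 4.29 over a median of 5.79 to a highest of 6.28. All 4 DAP12KO arrays were thus above all 6 UT arrays, a separation seen in 0.271% of all probe sets tested. Their fitted difference from UT was 2.67 ± 0.74 (SE), or 6.34-fold (unadjusted p = 0.0024, adjusted p = 0.648). Group means on the log2 scale ran in the order DAP12KO 7.96 ± 0.86, LPS 6.29 ± 1.82, UT 5.5 ± 0.84 and PBS 3.88 ± 0.51 (SD, n = 4, 4, 6 and 4), where each group overlaps the next in value and the order mixes label years.

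The second Cybb probe set, 1422978_at, read 9.43, 8.37, 8.13 and 10.23 in the LPS arrays of years A, B, B and D, against 6.78, 7.12, 7.0 and 8.93 in the PBS arrays of the same years. Each LPS array was above the PBS arrays of its own year, while the PBS array of year D lay above both LPS arrays of year B. The fit gave 1.58 ± 0.80 (SE, adjusted p = 0.440), with 2.66, 1.19 and 1.30 within years A, B and D. The DAP12KO arrays read 9.5, 11.43, 8.66 and 9.80, against 7.99, 4.13, 7.39 and 7.99 in the UT arrays of year D and 9.08 and 7.44 in those of year C. All DAP12KO arrays were above all UT arrays of year D, which held for 1.15% of all probe sets, but 1 of them was below a UT array of year C. The fitted difference of 2.97 ± 0.80 (SE, unadjusted p = 0.0020, adjusted p = 0.633) had the lowest p of any member in this comparison, and it was 2.06 without the low UT array at 4.13, UT array 2 of year D. On that array the Gapdh 3' minus 5' signal was 2.23, within the range of the LPS and PBS arrays of years A and B. It was 0.99 to 1.20 on the other UT arrays of year D. Endothelial markers (the 4 of 10 genes past the filter) averaged 5.84, against 3.05 to 3.49 on those arrays. They also averaged 5.97 on DAP12KO array 1, which read 9.5 in this probe set, and 5.58 and 5.98 on the PBS arrays of year B. The part of RNA quality or endothelial markers in the value of 4.13 was not tested.

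The third Cybb probe set, 1436778_at, read 12.34, 9.75, 10.10 and 9.54 in the LPS arrays of years A, B, B and D, against 7.85, 8.71, 9.14 and 9.45 in PBS. The LPS arrays were all above the PBS arrays, a separation that this probe set and 1436779_at share with 0.835% of all probe sets. The margin differed widely by year, with 4.49 in year A, 1.0 in year B and 0.09 in year D, around a fitted 1.64 ± 0.63 (SE, adjusted p = 0.307). Leaving out an array of year A left a fitted difference of 0.69. Its DAP12KO values, 9.59, 11.55, 9.66 and 10.40, overlapped with the UT values, which ran from 8.32 over 9.44 to 10.31. The fitted difference there was 1.07 ± 0.63 (SE, 95% interval -0.28 to 2.41, adjusted p = 0.921), less than for the other 2 probe sets of the gene.

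Without both PBS arrays of year B, the fitted LPS minus PBS differences of Cybb were 2.29, 1.98 and 3.83 for 1436778_at, 1422978_at and 1436779_at, larger than with them, and rested on 1 LPS and 1 PBS array each of years A and D. In a fit with each array's neuron marker level as a covariate they were 2.17, 3.78 and 2.09. Between DAP12KO and UT arrays the microglia marker means were alike, 13.60 to 13.80 against 13.58 to 13.78. Border macrophage markers, 10 of 10 measured, had means of 7.83 to 8.59 in DAP12KO and 8.01 to 9.99 in UT arrays. Of 10 monocyte markers, 7 were measured and 6 passed the filter. The means of these 6 were 6.13 to 7.32 in DAP12KO and 6.48 to 7.83 in UT arrays. The part of either list in the Cybb values was not tested.

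**Figure D2:**
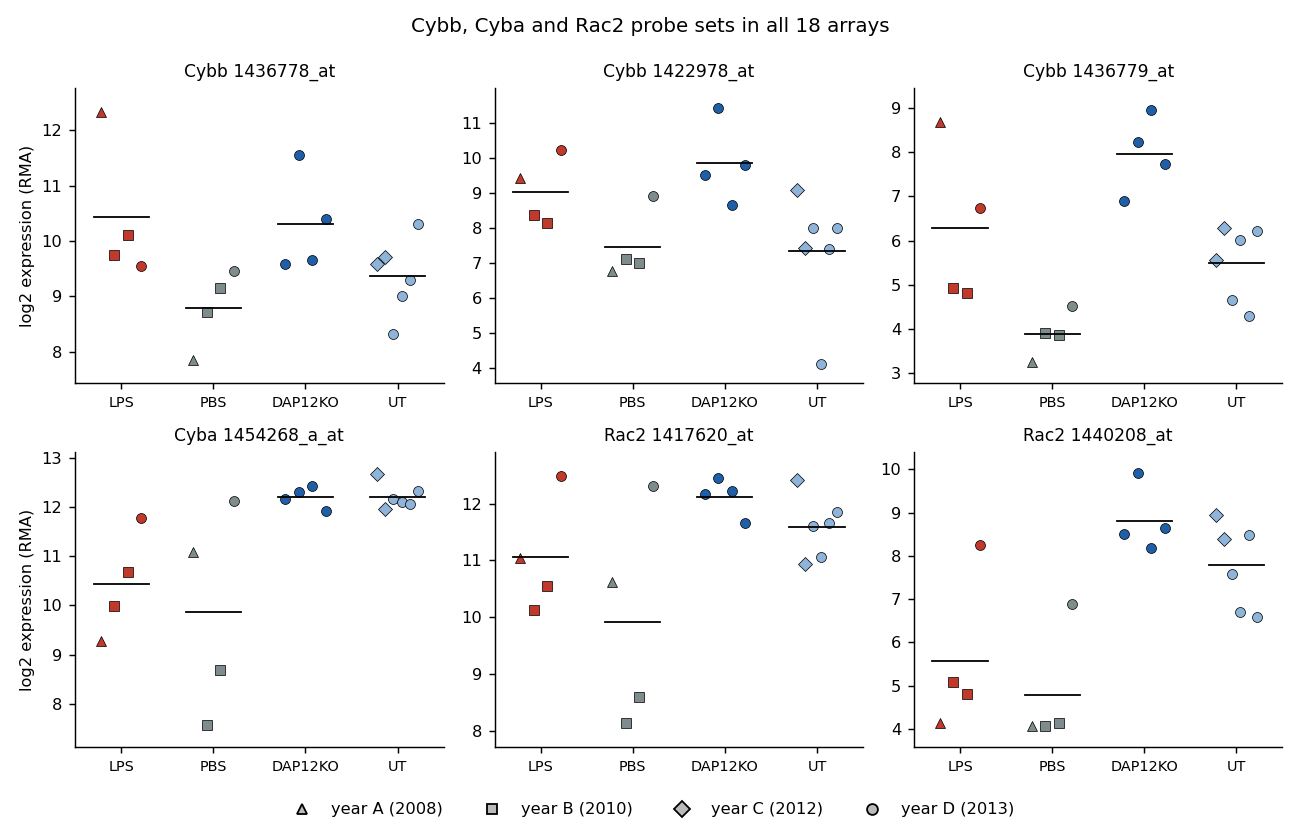
Log2 expression (RMA) of the Cybb, Cyba and Rac2 probe sets on all 18 arrays, by group, with the marker shape giving the label year and the bar the group mean. DAP12KO values of Cybb 1436779_at, 6.91 to 8.97, all lie above the UT values, 4.29 to 6.28, while Cyba values of DAP12KO and UT arrays coincide near 12.

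Cyba encodes p22phox, which stabilises NOX2 in the membrane and anchors the cytosolic subunits. Its probe set 1454268_a_at read 9.27, 9.98, 10.67 and 11.78 in the LPS arrays of years A, B, B and D, against 11.09, 7.57, 8.68 and 12.13 in PBS. LPS was below PBS in year A (-1.82) and year D (-0.34) and above it in year B (2.20), and the groups overlapped. The fitted difference of 0.56 ± 0.52 (SE, 95% interval -0.54 to 1.65, adjusted p = 0.716) turned to -1.08 without the PBS arrays of year B and to -0.36 in a fit with neuron marker levels as a covariate. Cyba read 12.17, 12.30, 12.42 and 11.92 in the DAP12KO arrays, within or next to the UT values, whose lowest, median and highest were 11.96, 12.13 and 12.67. The fit gave 0.04 ± 0.52 (SE) with a 95% interval of -1.06 to 1.14, and its sign turned without DAP12KO array 4 (-0.03). The spread within each of these groups, 0.21 in DAP12KO and 0.25 in UT (SD), was smaller than that in LPS (1.07) and PBS (2.10).

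Ncf1 encodes p47phox, the organizer that brings the cytosolic subunits to the membrane once it is phosphorylated. Its probe set 1456772_at read 12.65, 12.47, 12.66 and 11.76 in the LPS arrays of years A, B, B and D, against 12.22, 11.17, 11.37 and 12.02 in PBS. The 2 PBS arrays of year B were the lowest of all 18, and in year D LPS was below PBS by a small margin. For this set the fit gave 0.69 ± 0.24 (SE, unadjusted p = 0.0110, adjusted p = 0.260), and it was 0.08 without the arrays of year B. The probe sets 1451767_at and 1425609_at had fitted differences of 0.47 ± 0.34 and 0.62 ± 0.46 (SE), which turned to -0.22 and -0.15 without these arrays. Within the years all 3 probe sets were above PBS in year B (1.16 to 1.39) and below it in year D (-0.26 to -0.15).

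Ncf1 levels of the DAP12KO arrays lay inside the UT range. For 1456772_at the DAP12KO arrays read 12.29, 12.37, 12.20 and 12.28, a narrow set, and the UT arrays had 11.66, 12.12 and 12.80 as lowest, median and highest values. The fitted DAP12KO minus UT differences of 1456772_at, 1451767_at and 1425609_at were 0.31 ± 0.24, -0.21 ± 0.34 and 0.05 ± 0.46 (SE). The sign of 1451767_at turned without UT array 3 of year D (0.06). That of 1425609_at turned without DAP12KO array 2 (-0.03), UT array 1 of year D (-0.08) or UT array 2 of year D (-0.10). 

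Ncf4 encodes p40phox, which binds a phosphoinositide of phagosome membranes and helps to keep the oxidase active there. Probe set 1418465_at read 6.74, 7.79, 7.05 and 9.06 in the LPS arrays of years A, B, B and D, against 8.55, 5.87, 5.27 and 8.56 in PBS. The direction differed between years, with -1.81 in year A, 1.85 in year B and 0.50 in year D, and the fitted 0.60 ± 0.73 (SE) turned to -0.66 without the arrays of year B. The DAP12KO arrays read 10.19, 9.28, 9.0 and 9.32, and the UT arrays ran from 8.41 over 9.60 to 11.90, so that the groups overlapped. The fitted DAP12KO minus UT difference was -0.16 ± 0.73 (SE, 95% interval -1.71 to 1.40) and 0.61 without UT array 2 of year D, the array that held the value of 11.90. That array also held the low Cybb value of 4.13 in probe set 1422978_at.

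Rac2 is the small GTPase of blood cells that, bound to GTP, completes the active oxidase. Probe set 1417620_at read 11.05, 10.13, 10.55 and 12.49 in the LPS arrays of years A, B, B and D, against 10.62, 8.13, 8.59 and 12.32 in PBS. LPS was above PBS within each year, by 0.43, 1.98 and 0.18, and the fitted difference of 1.14 ± 0.38 (SE, unadjusted p = 0.0082, adjusted p = 0.235) was 0.30 without year B. Between DAP12KO arrays (12.17, 12.45, 12.22 and 11.65) and UT arrays (lowest 10.93, median 11.64, highest 12.41) the values overlapped, and the fitted difference was 0.57 ± 0.38 (SE, 95% interval -0.23 to 1.38).

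The other Rac2 probe set, 1440208_at, followed the label year more than the treatment. In the LPS arrays it read 4.14, 5.09 and 4.81 in years A and B and 8.26 in year D, against 4.07, 4.07 and 4.14 in years A and B and 6.89 in year D in PBS. Its values of years C and D were all 6.58 or more. The fitted LPS minus PBS difference was 0.78 ± 0.55 (SE, adjusted p = 0.599). The DAP12KO arrays read 8.51, 9.92, 8.18 and 8.66, against 7.59, 6.71, 8.48 and 6.58 in the UT arrays of year D and 8.95 and 8.39 in those of year C. Only DAP12KO array 4 lay below a UT array of its own year. The fitted difference was 1.48 ± 0.55 (SE, unadjusted p = 0.0164, adjusted p = 0.812), and 1.03 without a term for the label year.

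**Figure D3:**
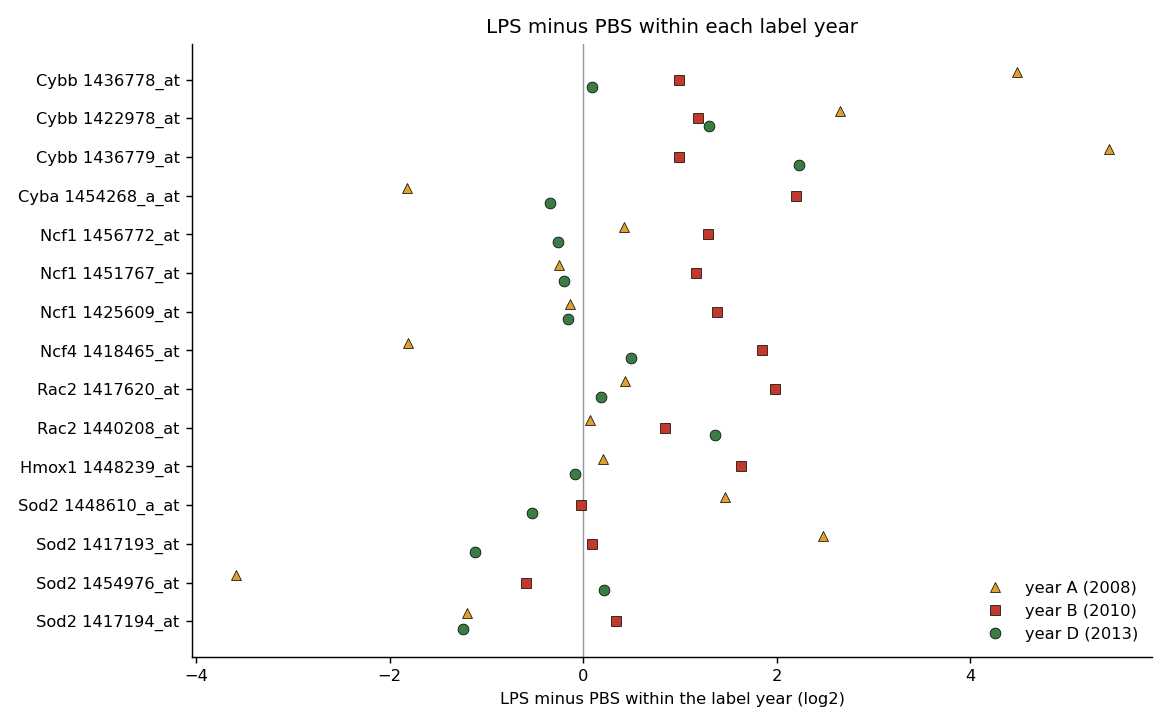
LPS minus PBS within each of the years A, B and D for the 15 member probe sets, in log2 units. The 3 Cybb and 2 Rac2 probe sets lie right of 0 in every year, while Cyba, at -1.82, 2.20 and -0.34, changes side.

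Hmox1 encodes heme oxygenase-1, which breaks heme down to biliverdin, iron and carbon monoxide and is a classic target of NRF2. Probe set 1448239_at read 11.55, 10.95, 10.66 and 11.08 in the LPS arrays of years A, B, B and D, against 11.34, 8.94, 9.40 and 11.16 in PBS. Both PBS arrays of year B were far below the rest, and within years A and D the groups differed by 0.20 and -0.08. For Hmox1 the fit gave 0.85 ± 0.33 (SE, unadjusted p = 0.0218, adjusted p = 0.316), and it was 0.06 without the arrays of year B. DAP12KO arrays read 11.01, 11.65, 11.92 and 11.77, within the UT range of 11.16 to 12.27 but for the lowest, and the UT median was 11.76. The fitted DAP12KO minus UT difference was 0.06 ± 0.33 (SE) with a 95% interval of -0.65 to 0.77. Its sign turned without DAP12KO array 4 (-0.05), DAP12KO array 5 (-0.00165), UT array 2 (-0.01) or UT array 3 (-0.07) of year D.

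With weights estimated for each array, 4 of these probe sets passed the LPS minus PBS test in limma. They were Cyba 1454268_a_at (1.56, adjusted p = 0.0241), Ncf1 1456772_at (1.02, adjusted p = 0.00571), Rac2 1417620_at (1.62, adjusted p = 0.00859) and Hmox1 1448239_at (1.33, adjusted p = 0.00759). The weights were 1.57 to 2.88 for the arrays of year B, 0.275 for those of year A and 0.652 for the LPS and PBS arrays of year D, so that these values rest mostly on year B. In that fit 1968 of all probe sets were called.

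**Figure D4:**
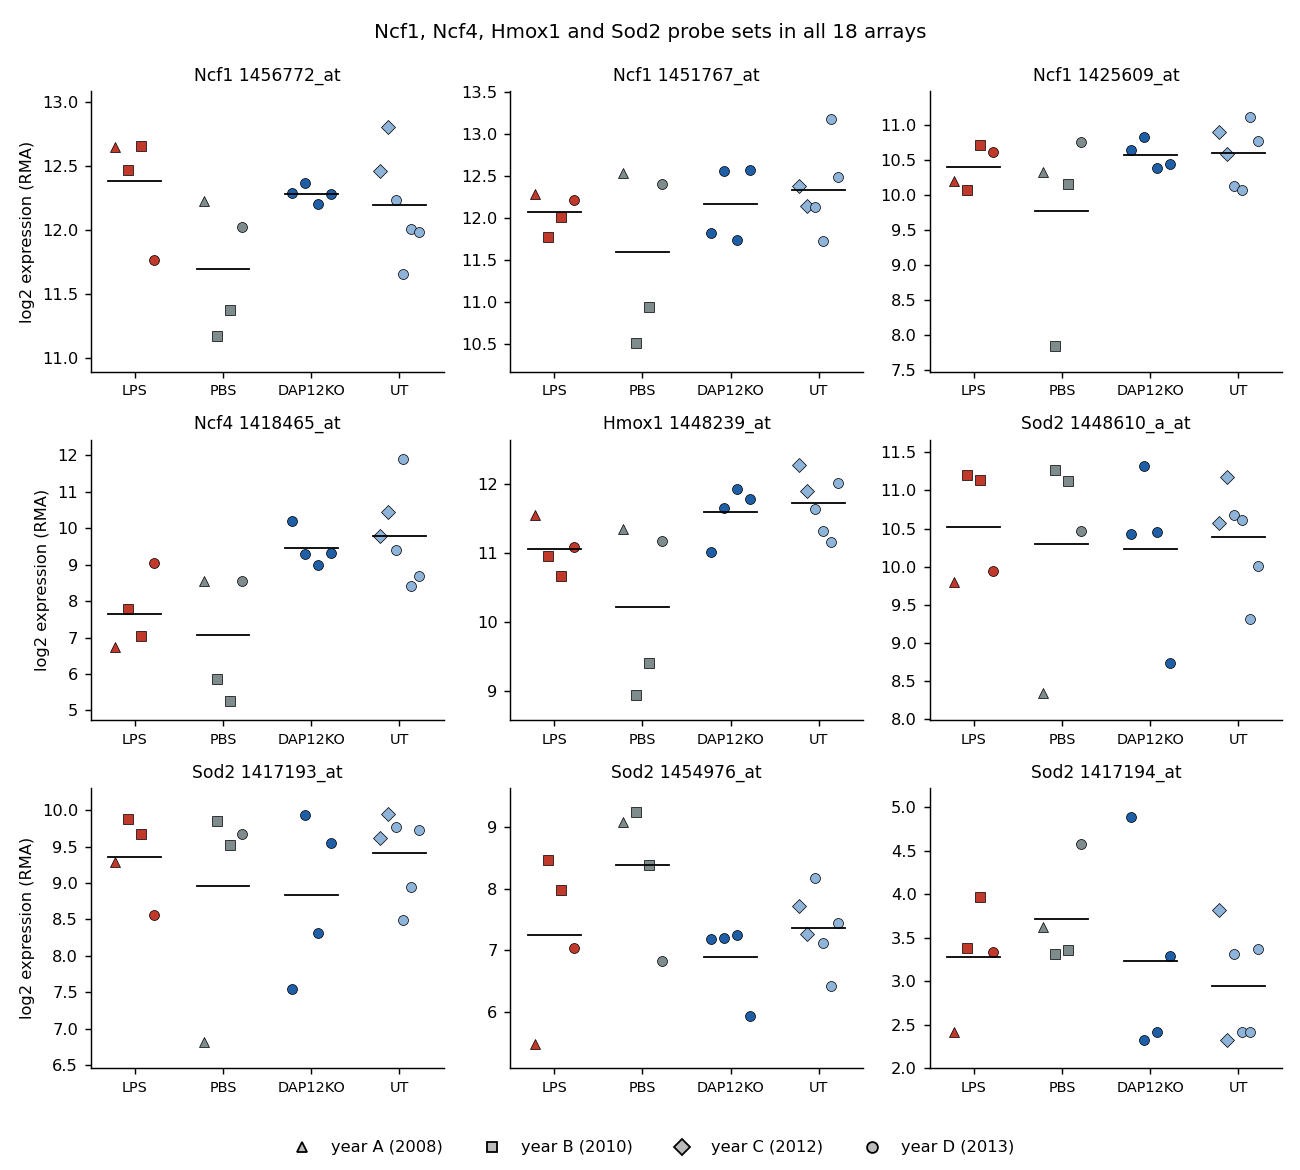
Log2 expression (RMA) of the Ncf1, Ncf4, Hmox1 and Sod2 probe sets on all 18 arrays, by group, with the marker shape giving the label year and the bar the group mean. The 2 PBS arrays of year B are the lowest of all for Ncf1 1456772_at (11.17 and 11.37), Ncf4 (5.87 and 5.27) and Hmox1 (8.94 and 9.40), and not for Sod2.

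Sod2 encodes the manganese superoxide dismutase of mitochondria, which turns superoxide into hydrogen peroxide. Probe set 1448610_a_at read 9.80, 11.20, 11.14 and 9.94 in the LPS arrays of years A, B, B and D, against 8.34, 11.27, 11.12 and 10.47 in PBS. Unlike the oxidase genes, its year B values were alike in both groups (a within-year difference of -0.03) and above most others. The fitted differences of 1448610_a_at and 1417193_at were 0.22 ± 0.49 and 0.39 ± 0.59 (SE), and both turned negative, to -0.19 and -0.31, without an array of year A. Probe set 1454976_at went the other way, with 5.48, 8.46, 7.98 and 7.05 in LPS against 9.07, 9.23, 8.39 and 6.83 in PBS. Its fitted difference was -1.14 ± 0.62 (SE, 95% interval -2.45 to 0.17, adjusted p = 0.470), with -3.59 within year A and 0.22 within year D. Probe set 1417194_at lay between 2.33 and 4.89 on all arrays, close to the floor, and had a fitted difference of -0.44 ± 0.57 (SE).

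Between DAP12KO and UT arrays the 4 Sod2 probe sets had fitted differences of 0.08, -0.40, -0.39 and 0.35 with standard errors of 0.49 to 0.62, and each group overlapped with the other. For 1448610_a_at the DAP12KO arrays read 10.43, 11.31, 10.45 and 8.74, against a lowest, median and highest UT value of 9.31, 10.59 and 11.18. Its sign turned without DAP12KO array 2 (-0.28) or UT array 3 of year D (-0.20). That of 1417193_at (0.03) and of 1417194_at (-0.20) turned without DAP12KO array 1. No disagreement between the probe sets of Sod2 was tested.

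Nos2 encodes the inducible nitric oxide synthase, a hallmark of macrophages activated by LPS, and Nqo1 the quinone reductase that is a standard readout of NRF2. Neither could be tested, because both were at the floor. Nos2 (1420393_at) stood at the lowest value of the table, 2.19, on all 18 arrays. Nqo1 (1423627_at) stood there on 17 arrays and read 2.22 on UT array 1 of year D. Neither gene was therefore detected above the floor in the LPS group, in the DAP12KO group or in their controls, and no fold is given.

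Whether the members responded unlike in the 2 comparisons was tested as the difference of the fitted responses, LPS minus PBS less DAP12KO minus UT. The test called 0 of the 15 member probe sets, against 0.00444% of all (1 probe set), and 0 had an unadjusted p under 0.05, against 8.19% of all (2.54% above and 5.65% below 0). It was above 0 in 10 of 15, against 43.6% of all. The lowest adjusted p was 0.669, for Hmox1, whose difference of responses was 0.79 ± 0.47 (SE, 95% interval -0.21 to 1.79). For Cybb 1422978_at it was -1.39 ± 1.13 and for 1436779_at -0.26 ± 1.04 (SE). Intervals as wide as -2.47 to 1.96 for the last do not show that the responses were alike.

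Genes that work with the members were described by 6 lists, each gene by its brightest single-gene probe set, and 0 genes of any list were called in either comparison in the fit with equal weights. With array weights, where the arrays of year B count most, 1968 of all 22512 probe sets passed the LPS minus PBS test. Among the 11, 18, 21, 13 and 10 genes tested in the lists, 9 were so called. Of these Arhgdib (0.77, adjusted p = 0.00616), Rap1b (0.61, adjusted p = 0.00807), Prkcd (1.22, adjusted p = 0.0319), Nfe2l2 (1.07, adjusted p = 0.0429) and Gpx3 (0.92, adjusted p = 0.00902) were higher, and Gpx8 (-3.49, adjusted p = 0.0178), Prdx2 (-0.82, adjusted p = 0.0497), Arg2 (-1.99, adjusted p = 0.00325) and Ddah2 (-2.07, adjusted p = 0.0416) lower. Among the oxidase partners, which load, activate or supply the complex, 11 of 11 tested genes had LPS above PBS in the fit, with a median of 0.41, against -0.12 over all 11630 genes. Without the arrays of year B, 6 of the 11 were above 0 and 5 below (Prkcd, Hvcn1, Dock2, Vav1 and Prex1), with a median of 0.12. The lowest p-values were those of Arhgdib, which holds Rac proteins in the cytosol (0.57 ± 0.17 SE, adjusted p = 0.20), and Rap1a, a GTPase found with the oxidase core (0.68 ± 0.23 SE, adjusted p = 0.250). Both were above the PBS mean of their year on 4 of 4 LPS arrays, as were Rap1b, Rac1, Prkcb and Cybc1. This held for 6.5% of all probe sets tested. Within years A, B and D Arhgdib was at 0.24, 0.96 and 0.10, so that its margin was largest in year B. In the DAP12KO comparison 8 of the 11 were above 0 with a median of 0.06, against 0.02 over all genes. Hvcn1, the proton channel that balances the oxidase's charge (0.67 ± 0.51 SE), and Prex1, an activator of Rac (0.65 ± 0.61 SE), had the lowest p there.

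Other NOX and DUOX family oxidases offered no second source of signal that could be tested. Of 9 genes written in that list, 5 had a probe set and 0 passed the filter. Nox4, Duox1 and Duoxa2 were near the floor on all 18 arrays, Duoxa1 on 17 and Noxo1 on 15.

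Targets and regulators of NRF2 (18 genes tested) were split, with 11 above and 7 below 0 for LPS and 9 on either side for DAP12KO, and medians of 0.12 and -0.05. Without the year A array of either group, 8 were above and 10 below 0 for LPS, with a median of -0.14. Nfe2l2, which encodes NRF2 itself, had a fitted LPS difference of 0.73 ± 0.34 (SE, adjusted p = 0.405). Within years A, B and D it was at 0.80, 1.20 and -0.29. Txnrd1, the cytosolic thioredoxin reductase and a target of NRF2, was lower on 4 of 4 LPS arrays, at -1.10 ± 0.36 (SE, adjusted p = 0.235). In DAP12KO arrays the lowest p was that of Gsr, glutathione reductase, at 1.00 ± 0.36 (SE, adjusted p = 0.809), and Ephx1, an epoxide hydrolase, followed at -1.16 ± 0.63 (SE, adjusted p = 0.921).

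Enzymes that remove peroxide and superoxide (21 genes tested) had 9 above and 12 below 0 for LPS, with a median of -0.03, and 14 above and 7 below for DAP12KO, with a median of 0.16. Gpx8, a peroxidase of the endoplasmic reticulum, averaged 4.19 ± 1.5 in LPS and 8.15 ± 2.92 in PBS arrays (SD, n = 4 each), with a fitted -3.96 ± 1.14 (SE, adjusted p = 0.183). Glrx2, a mitochondrial glutaredoxin, was at -2.36 ± 1.09 (SE), a value that combined -6.80 within year A with -0.82 and -0.98 within years B and D. In DAP12KO arrays Sesn1, a sestrin, was at -0.80 ± 0.50 and Gpx3, a secreted glutathione peroxidase, at 0.38 ± 0.25 (SE).

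Heme and iron genes (13 tested), the partners of Hmox1, had 4 above and 9 below 0 for LPS, with a median of -0.42. This split depended on year A. Dropping its array from either group gave 8 above and 5 below 0, with a median of 0.10. Array weights also gave 8 above and 5 below 0, with a median of 0.09. With all arrays of year B left out, 3 were above and 10 below 0, with a median of -0.84. For DAP12KO, 7 were above and 6 below 0, with a median of 0.09. The transferrin receptor gene Tfrc was at -1.41 ± 0.53 (SE, adjusted p = 0.299), with -2.59, -1.51 and -0.02 within years A, B and D. Hmox2, the constitutive heme oxygenase, was at -0.66 ± 0.40 (SE), and this turned to 0.10 without an array of year A. In DAP12KO arrays Blvrb, a biliverdin reductase, was at 0.94 ± 0.59, and the heme transporter gene Slc48a1 at 0.59 ± 0.48 (SE).

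Genes of nitric oxide and arginine metabolism (10 tested), the surroundings of Nos2, had 1 above and 9 below 0 for LPS with a median of -0.77, and 4 above and 6 below for DAP12KO with a median of -0.02. Arg2, the mitochondrial arginase that competes with nitric oxide synthases for arginine, averaged 2.38 ± 0.16 in LPS and 4.89 ± 2.44 in PBS arrays (SD, n = 4 each). Arg2 was thus near the floor in LPS (a mean under 2.49), so the size of its difference depended on the PBS values. Its fitted difference was -2.51 ± 0.59 (SE, adjusted p = 0.128), with -5.85, -2.01 and -0.17 within years A, B and D. It passed the test, at -3.29 with adjusted p of 0.0150 and 0.0153, when the LPS or the PBS array of year D was left out, and it was -1.40 when the year A array of either group was left out. Spr, which makes the cofactor of these synthases, was the 1 gene above 0, at 3.63 ± 1.6 (SE, adjusted p = 0.367). Within years A, B and D it was at 8.92, 0.29 and 5.04, and its fitted value was 1.88 when the year A array of either group was left out. Without year B the list had 3 genes above and 7 below 0. In a fit with neuron marker levels as a covariate, 5 were above and 5 below 0, with a median of -0.11. A filter at the 60th percentile left 5 genes, with 0 above and 5 below 0. Spr was thus among the genes removed, with a mean over all arrays under log2 4.74. In DAP12KO arrays the urea cycle gene Asl was at 1.24 ± 0.49 (adjusted p = 0.839) and Nos1, the neuronal synthase, at 0.75 ± 0.57 (SE). Besides Nos2, the genes Nos3, Arg1, Gch1, Ass1 and Gucy1b1 did not pass the filter.

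**Figure D5:**
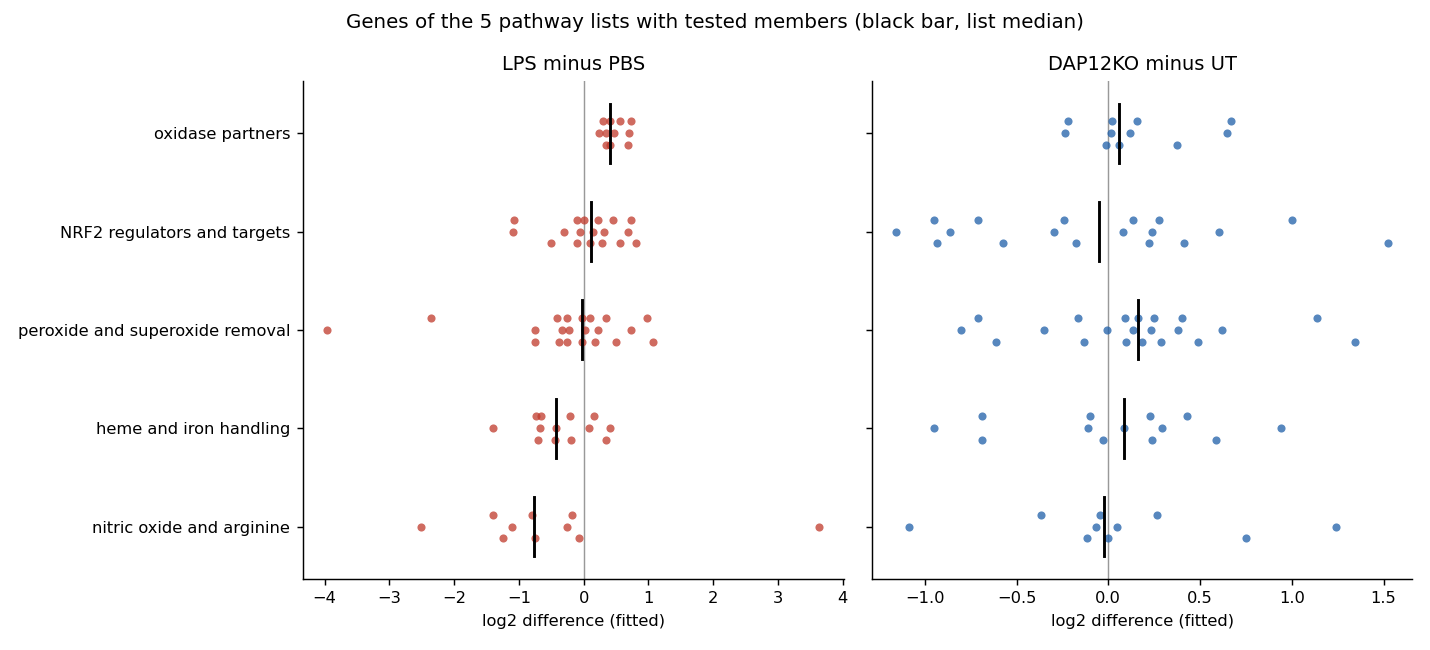
Fitted log2 differences of the genes in the 5 pathway lists that had tested genes, LPS minus PBS on the left and DAP12KO minus UT on the right, 1 point per gene with a black bar at the list median. The 11 oxidase partners all lie right of 0 in the left panel with a median of 0.41 (6 of 11 without year B). Of the 10 nitric oxide and arginine genes, 9 lie left of 0 there (7 without year B, 5 with the neuron marker covariate). No gene passed the adjusted threshold.

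The genes whose pattern over the 18 arrays was most like a member were ranked by Pearson r with the member's brightest probe set. They are a description of arrays that share label years and cell make-up. Cybb was most like Usp18 (r = 0.803) and Treml4 (0.792), Cyba like Unc93b1 (0.966) and Parvg (0.965), and Ncf1 like Mir142 (0.840) and Plek (0.818). Ncf4 was most like Slc66a1 (0.933) and Rrbp1 (0.922), and Rac2 like Rogdi (0.944) and Sh3bgrl3 (0.942). Hmox1 was most like Il6ra (0.909) and Asph (0.905), and Sod2 like Golgb1 (0.849) and Rnf8 (0.843). No member was among these nearest genes, because members were left out of the ranking.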

How the data were processed

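Biotin-labelled RNA of sorted microglia was hybridized to Affymetrix Mouse430_2 arrays after amplification, per the labels' protocols. The authors deposited log2 expression values of 45101 probe sets on 18 arrays. RMA (version not given in the sources used here) is named in the submitters' processing notes, which do not say if the arrays were normalized jointly. The platform annotation named 1 gene for 34958 probe sets, several for 932 and none for 9211, and 34754 of the first had an Entrez identifier in the RefSeq table, with 0 symbols updated. The values were used as deposited. Single-gene probe sets with a mean at or above the 40th percentile (log2 2.49) were tested, and a value under this is called near the floor.

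All arrays were fitted with limma 3.58.1 in R 4.3.3, with group means, the label year as a block (11 residual degrees of freedom) and a variance trend. Two-sided p-values were adjusted by Benjamini-Hochberg over the 22512 probe sets of a contrast, with a threshold of 0.05. The labels do not say what the years mark. Arrays were taken as replicates because RNA was pooled per dam, per the series' design text, and their number limits the precision. Array numbers are those of the labels. The LPS array of year D is numbered 3_2 and that of year A 3. The labels do not say whether the first repeats the second, so their independence is not known.

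The members and lists were chosen with earlier results of these data known. All member probe sets are named. Of each list and comparison, genes past the threshold, or else the 2 of lowest p, are named, and per member the 2 non-member genes of highest correlation. Alternatives were the filter, the year term, the groups fitted, the variance trend, array weights, a replicate block, 1 probe set per gene, a neuron marker covariate, and leaving out arrays. Equal replicate numbers were not taken as pairs in the main fit. Deviations from the means of group and year correlated at 0.52 for the LPS and PBS arrays 1 of year B. They correlated at -0.01 and 0.00213 for the DAP12KO and UT arrays 1 and 2 of year D. Year B held only 2 arrays of each group, so 0.52 neither settles nor excludes a pairing there. Figures used matplotlib 3.10.9 in Python 3.11.15.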

Additional observations from a re-analysis of the deposited data

Results flagged for a closer look

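In 5 of 60 groups of member probe sets, 1 array stood apart from the other arrays of its group. Chance alone gives about 1 in 20 such groups where the arrays of a group are alike draws. The LPS, PBS and UT groups mix label years, so this share is not their chance rate. The PBS arrays of years A and D are each the only PBS array of their year. Cybb 1422978_at read 8.93 in the PBS array of year D, against 6.78 to 7.12 in the other PBS arrays. Rac2 1440208_at read 6.89 in the same PBS array of year D, against 4.07 to 4.14 in the others, all of years A and B. Cybb 1422978_at read 4.13 in UT array 2 of year D, against 7.39 to 9.08 in the other UT arrays. Sod2 1417193_at read 6.81 in the PBS array of year A, against 9.52 to 9.85 in the other PBS arrays. Sod2 1454976_at read 5.94 in DAP12KO array 5 of year D, against 7.19 to 7.26 in the other DAP12KO arrays. The cause was not tested for any of these values.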

How the results depend on the processing

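No member probe set passed the DAP12KO minus UT test or the test of the difference of responses under any alternative run. In LPS minus PBS, 4 members passed with array weights and 0 under the others. The count of all probe sets called for LPS minus PBS, 6 as reported, was 1 without the label year term, 0 with only the 2 groups compared, 0 when only probe sets above the 60th percentile entered, 11 with 1 probe set per gene, 1968 with array weights, 1 with the neuron covariate, 21 without both PBS arrays of year B and 11 without all arrays of year B. With a replicate block, which treats arrays of 1 number and year as paired, 25 probe sets were called (consensus correlation 0.0798) and 0 members, and this block changed no member's call. Leaving out 1 array gave 1 to 243 for LPS minus PBS and 0 to 5 for DAP12KO minus UT. In the second, the count was 1 without DAP12KO array 1 or UT array 3 of year D, 2 without DAP12KO array 4 or UT array 1 of year D, and 5 without DAP12KO array 5.

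Of 993 single values over 52 fitted differences, 43 changed sign, in 17 of the differences, and 940 kept direction and call. In LPS minus PBS, signs turned without the PBS arrays of year B for Cyba (-1.08), Ncf1 1451767_at (-0.22), Ncf1 1425609_at (-0.15), Ncf4 (-0.66) and Tyrobp (-0.081), and the same values came without all arrays of year B. With the neuron covariate they turned for Cyba (-0.36), Ncf4 (-1.10) and Sod2 1448610_a_at (-0.22), and with array weights for Sod2 1417194_at (0.021) and Hmox2 (0.049). In DAP12KO minus UT they turned without the year term for Cyba (-0.011), Ncf1 1425609_at (-0.019), Hmox1 (-0.12) and Sod2 1448610_a_at (-0.16). With the neuron covariate they turned for Cyba (-0.19), Hmox1 (-0.056) and Sod2 1448610_a_at (-0.030), and with array weights for Ncf4 (0.11). Leaving out 1 array gave, in LPS minus PBS, ranges of -0.19 to 0.47 for Sod2 1448610_a_at, -0.31 to 0.89 for Sod2 1417193_at and -0.87 to 0.098 for Hmox2. In DAP12KO minus UT the ranges were -0.032 to 0.14 for Cyba, -0.42 to 0.059 for Ncf1 1451767_at, -0.095 to 0.25 for Ncf1 1425609_at, -0.55 to 0.61 for Ncf4, -0.065 to 0.25 for Hmox1, -0.28 to 0.58 for Sod2 1448610_a_at, -0.76 to 0.031 for Sod2 1417193_at and -0.20 to 0.65 for Sod2 1417194_at. The cause was not tested. Signal near the floor left Nos2 and Nqo1 untested and limits Sod2 1417194_at and, in the LPS arrays, Arg2.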

Other observations

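Cybc1 encodes the chaperone that NOX2 needs to mature, and its 2 probe sets did not behave alike. The probe set 1460087_at, singled out after its values were seen, read 9.43, 8.60, 7.15 and 6.11 in DAP12KO arrays 1, 2, 4 and 5, against 5.53, 2.72, 3.02 and 2.74 in UT arrays 1, 2, 3 and 6 of year D and 3.51 and 3.79 in those of year C. All DAP12KO arrays were above all 6 UT arrays, a separation seen in 0.271% of all probe sets tested. The fitted difference was 4.32 ± 1.11 (SE, unadjusted p = 0.0014, adjusted p = 0.584), which did not pass the test in limma. The brighter probe set of the gene, 1423678_at, had a fitted difference of 0.02 ± 0.43 (SE). In the LPS and PBS arrays 1460087_at had no common direction, with 3.02, 4.03, 6.24 and 3.17 in LPS arrays of years A, B, B and D and 7.87, 2.80, 3.02 and 5.89 in PBS arrays of the same years.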
